A study of Mus musculus with 12 samples.

Results

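Mural cells wrap the blood vessels of the brain, and 10 genes that mark them were followed here in RNA of the mouse hippocampus. The members are 5 pericyte genes (*Pdgfrb*, *Rgs5*, *Kcnj8*, *Abcc9* and *Vtn*) and 5 vascular smooth muscle genes (*Acta2*, *Tagln*, *Myh11*, *Cnn1* and *Des*), taken as a list of symbols and matched by Entrez ID to the 27179 gene IDs of the count table. All 10 were found, and all 10 were among the 17937 genes with enough counts to be tested. Whole hippocampus of 12 mice aged 3 months was sequenced, from 6 *Nell-1+/6R* mice and 6 wildtype (WT) littermates, each set holding 3 females and 3 males. The 6R allele is a loss-of-function mutation of *Nell-1* induced with N-ethyl-N-nitrosourea, it is present in every cell of the body, and the mice studied carry 1 such copy because homozygous mice die as newborns.

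Pericytes sit on capillaries and small vessels, share a basement membrane with the endothelium and depend on PDGF-B from endothelial cells, which is sensed by the receptor that *Pdgfrb* encodes. Smooth muscle cells form the contractile coat of arteries and arterioles, many of which run in the pia, the thin leptomeningeal layer on the brain surface. Their contractile genes are switched on together by serum response factor (SRF) with myocardin-type cofactors, through a DNA element called the CArG box.

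A mouse had 10834905 to 16016317 counts in all, with a median of 12213485 in WT and 13507270 in *Nell-1+/6R* mice. *Nell1* averaged 36.5 ± 4.55 CPM in WT mice against 19.1 ± 1.77 CPM with the 6R allele (SD, n = 6), without overlap, CPM being the TMM-scaled share of a library's counts. The principal neuron markers *Slc17a7* and *Camk2a* averaged 2029 and 7870 CPM in WT. Markers of neighbouring tissues were present as well. *Ttr*, the transthyretin gene of the choroid plexus, was above 500 CPM in 4 mice, namely female WT 1 and 2, male WT 3 and female *Nell-1+/6R* 1. In bulk RNA, fewer mural cells and less mRNA in each mural cell cannot be told apart.

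All 5 smooth muscle genes had negative log2 fold changes in *Nell-1+/6R* mice, from -1.17 to -0.79, while the log2 fold changes of the 5 pericyte genes lay between -0.27 and 0.08. In a quasi-likelihood fit of sex and genotype (edgeR), a gene was called where its unadjusted p was under 0.05 and its level differed by more than 1.5-fold. By that rule 4 of the 10 members were called, namely *Acta2*, *Myh11*, *Tagln* and *Des*, all lower. Of all genes tested, 1.07% were called lower and 0.385% higher. The members and the gene lists below were chosen with earlier results of these data known. Counts set beside such shares are therefore a description and no independent support. Mean CPM was 54.7% lower for *Acta2*, 50.4% for *Myh11*, 45.5% for *Tagln* and 43.5% for *Des*. No member reached a Benjamini-Hochberg adjusted p under 0.05 (each 0.9995, edgeR), whereas 6 of 10 had an unadjusted p under 0.05, all lower, where 2.2% of all genes tested had such a p and were lower. The median log2 fold change was -0.88 over the smooth muscle members and -0.05 over the pericyte members, beside -0.000762 over all genes tested. The lower level of the smooth muscle members went together with a lower level of leptomeningeal fibroblast markers, and 3 or all 4 of the calls were lost once that level was a covariate, as described after the single genes.

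**Figure D1:**
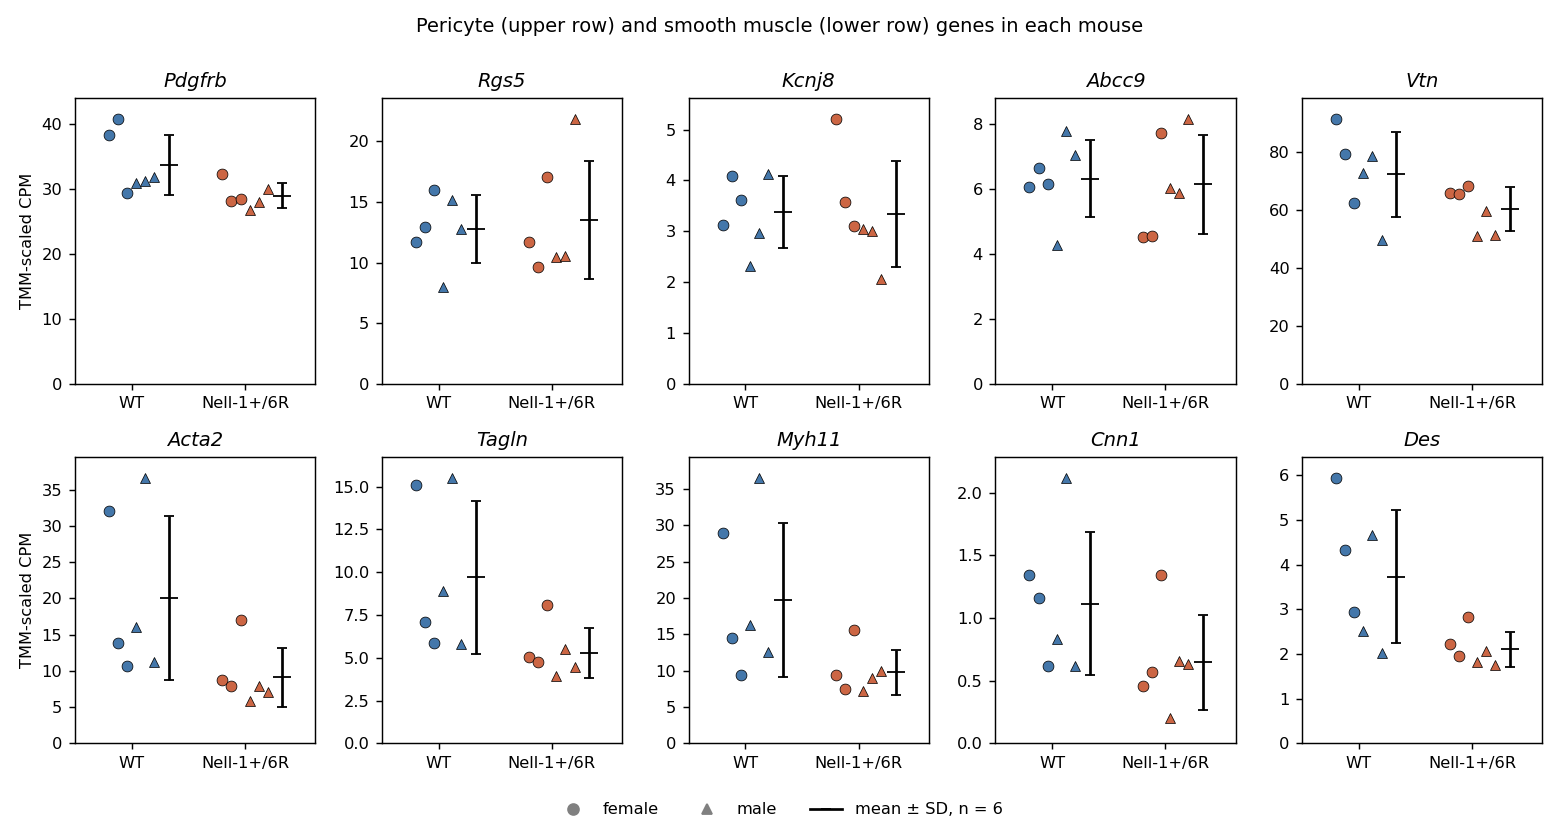
CPM (y axis, scaled by TMM factors, starting at 0) of the 10 members in each mouse, with circles for females, triangles for males and bars for the mean ± SD of 6 mice. For *Acta2*, *Tagln* and *Myh11*, female WT 1 and male WT 2 lie far above the other mice, and the genotypes overlap in every panel.

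*Acta2* (Entrez ID 11475, chromosome 19 from 34240336 to 34255585 on the minus strand of GRCm38) encodes smooth muscle alpha-actin, the thin filament of the contractile apparatus. It ranged from 10.7 to 36.5 CPM in WT mice, with a median of 15.0. In *Nell-1+/6R* mice it ranged from 5.82 to 17.1 CPM, with a median of 7.92. Thus 5 of the 6 *Nell-1+/6R* mice were below every WT mouse, and the exception was female *Nell-1+/6R* 3 at 17.1 CPM. The means were 20.1 ± 11.3 and 9.10 ± 4.02 CPM (SD, n = 6 each). This gave a log2 fold change of -1.17 (standard error 0.344, p = 0.00451, edgeR), and an exact permutation test over all splits of the mice into 6 and 6 gave p = 0.0216 (two-sided). The WT spread came largely from female WT 1 (32.0 CPM) and male WT 2 (36.5 CPM). Without male WT 2 the log2 fold change was -0.84, and without female WT 1 it was -0.96.

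Because the contractile genes share the CArG box, a run of CC, 6 bases that are each A or T, and GG, the 250 bases before each RefSeq start (GRCm38.p6) were searched on both strands. The strict form occurred in 1.47% of 32851 such windows, and 8.59% held the strict form or a form with a C or G at 1 of the 6 central bases. Of the 5 smooth muscle members, 3 had a window and 1, *Acta2*, held a match, both times with 1 departure. Of the pericyte members, 4 had a window and 0 held a match, and *Pdgfrb*, *Tagln* and *Myh11* had no window in the table. Among the 14 other smooth muscle genes with a window, *Myl9* alone held a match. Among the 11 other pericyte genes with a window, 2 held a match with 1 departure, *Tbx18* and *Pth1r*. The stretches of *Acta2*, *Myl9* and *Srf* are shown in 30 bases, with the matched 10 bases in capitals, as the forms found in a member, in another smooth muscle gene and in the gene of the factor itself. The *Acta2* matches begin 84 and 34 bases before the start (chr19:34255438-34255467 and chr19:34255388-34255417, minus strand). The start of this window lies inside the annotated extent of *Acta2*, downstream of its 5′ end, so both matches are within the gene as annotated. Those of *Myl9* begin 161 and 99 bases before it (chr2:156775293-156775322 and chr2:156775355-156775384, plus strand). Those of *Srf* begin 82 and 62 bases before it (chr17:46556225-46556254 and chr17:46556205-46556234, minus strand). A match describes the letters of the window and is not a measured binding site.
Acta2, 84 before: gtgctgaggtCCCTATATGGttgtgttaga
Acta2, 34 before: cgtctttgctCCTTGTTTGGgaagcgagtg
Myl9, 161 before: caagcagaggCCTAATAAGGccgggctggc
Myl9, 99 before: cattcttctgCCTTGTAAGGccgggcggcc
Srf, 82 before: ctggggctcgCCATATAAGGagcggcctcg
Srf, 62 before: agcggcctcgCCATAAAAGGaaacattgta

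*Myh11* (Entrez ID 17880, chromosome 16 from 14194527 to 14292188) encodes the smooth muscle myosin heavy chain, the motor that pulls on the actin filament. It ranged from 9.41 to 36.4 CPM in WT (median 15.4) and from 7.24 to 15.6 CPM in *Nell-1+/6R* mice (median 9.23). Of the WT mice, 3 lay above every *Nell-1+/6R* mouse, and 3 *Nell-1+/6R* mice lay below every WT mouse. Its log2 fold change was -1.01 (standard error 0.313, p = 0.00622, edgeR; exact permutation p = 0.0281).

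*Tagln* (Entrez ID 21345, chromosome 9 from 45929628 to 45936058) encodes transgelin, an actin-binding protein of smooth muscle also called SM22 alpha. It ranged from 5.80 to 15.5 CPM in WT (median 8.0) and from 3.92 to 8.07 CPM in *Nell-1+/6R* mice (median 4.89). As with *Acta2*, 5 of 6 *Nell-1+/6R* mice were below every WT mouse, and its log2 fold change was -0.88 (standard error 0.276, p = 0.00653, edgeR; exact permutation p = 0.0216). Of the 50-base stretches of its transcripts, 58.3% also lie in transcripts of Gm48529 or *Pcsk7*, which run on the opposite strand. The sources used here do not give the strand setting of the counting, so reads of *Tagln* and of these partners may not have been told apart.

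*Des* (Entrez ID 13346, chromosome 1 from 75360292 to 75368579) encodes desmin, the muscle intermediate filament, which pericytes also contain. It ranged from 2.02 to 5.93 CPM in WT (median 3.63) and from 1.74 to 2.83 CPM in *Nell-1+/6R* mice (median 2.01), and every *Nell-1+/6R* mouse was below the WT median. The counts behind these values were 23 to 97 in a WT mouse and 22 to 40 in a *Nell-1+/6R* mouse. This was a log2 fold change of -0.81 (standard error 0.224, p = 0.00277, edgeR; exact permutation p = 0.0216). Its antisense neighbour Gm15179 shares 4.61% of its stretches.

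*Cnn1* (Entrez ID 12797, chromosome 9 from 22099221 to 22109221) encodes calponin, which binds actin and restrains the myosin ATPase. It had only 7 to 25 counts in a WT mouse and 3 to 19 in a *Nell-1+/6R* mouse, so its precision was the poorest of the members. Its CPM ranged from 0.614 to 2.11 in WT (median 0.996) and from 0.203 to 1.34 in *Nell-1+/6R* mice (median 0.602). The log2 fold change of -0.79 (standard error 0.409) was as large as that of *Des* but missed the threshold (p = 0.0755, edgeR; exact permutation p = 0.0931). It passed without female *Nell-1+/6R* 3 (log2 fold change -1.15) and without female WT 3 (-0.955). These were the only 2 of 12 fits with a single mouse left out in which it was called. Over those 12 fits its log2 fold change ranged from -1.15 to -0.44.

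*Pdgfrb* (Entrez ID 18596, chromosome 18 from 61045127 to 61085067), the PDGF receptor beta, ranged from 29.4 to 40.8 CPM in WT (median 31.5) and from 26.9 to 32.4 CPM in *Nell-1+/6R* mice (median 28.3). Female WT 1 and 2 were above every *Nell-1+/6R* mouse, and 4 *Nell-1+/6R* mice were below every WT mouse. With a log2 fold change of -0.22 (standard error 0.0814, p = 0.0185, edgeR; exact permutation p = 0.0281), it stayed under the fold threshold. *Vtn* (Entrez ID 22370, chromosome 11 from 78499120 to 78502325), the gene of the matrix protein vitronectin, ranged from 49.6 to 91.4 CPM in WT (median 75.5) and from 51.0 to 68.4 CPM in *Nell-1+/6R* mice (median 62.6). Its log2 fold change was -0.27 (standard error 0.11, p = 0.0307, edgeR), with an exact permutation p = 0.126.

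*Rgs5* (Entrez ID 19737, chromosome 1 from 169655501 to 169695813) encodes a regulator of G protein signalling that is a widely used pericyte marker. It ranged from 7.98 to 16.0 CPM in WT (median 12.9) and from 9.61 to 21.9 CPM in *Nell-1+/6R* mice (median 11.1). The highest value was in male *Nell-1+/6R* 3 and the lowest in male WT 1, and the genotypes overlapped almost entirely. The log2 fold change was 0.08, with a 95% interval from -0.41 to 0.57 (edgeR; exact permutation p = 0.84).

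*Kcnj8* (Entrez ID 16523) and *Abcc9* (Entrez ID 20928) encode Kir6.1 and SUR2, the pore and the regulatory subunit of the vascular ATP-sensitive potassium channel. The genes lie side by side on chromosome 6, from 142564837 to 142571614 and from 142587862 to 142702766, with 16247 bases between them. *Kcnj8* ranged from 2.32 to 4.13 CPM in WT (median 3.37) and from 2.06 to 5.21 CPM in *Nell-1+/6R* mice (median 3.08). *Abcc9* ranged from 4.27 to 7.78 CPM in WT (median 6.39) and from 4.52 to 8.16 CPM in *Nell-1+/6R* mice (median 5.95). Neither differed beyond the spread between mice. The 95% intervals of the log2 fold change ran from -0.45 to 0.39 for *Kcnj8* and from -0.44 to 0.35 for *Abcc9* (edgeR). Differences within those intervals were not detectable with 6 mice per genotype at this depth. The neuronal partners of the same channel family, *Kcnj11* and *Abcc8*, were at 53.9 and 60.9 CPM in WT and had log2 fold changes of 0.10 and -0.04. None of the 4 channel genes was called or had an unadjusted p under 0.05 in edgeR, limma-voom or DESeq2.

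Per kilobase of exon, WT mice had the highest level for *Vtn* (35.6 CPM per kb), followed by *Acta2* (9.14), *Pdgfrb* (6.16), *Tagln* (4.88), *Rgs5* (2.81), *Myh11* (2.59), *Kcnj8* (1.32), *Des* (0.993), *Abcc9* (0.755) and *Cnn1* (0.407). Neighbours in this order were compared within mice by exact permutation (two-sided, 64 arrangements, smallest possible p = 0.0312). *Vtn* stood above *Acta2* and *Abcc9* above *Cnn1* at that smallest p (adjusted p = 0.14 over 9 pairs). For the other 7 neighbouring pairs the exact p was 0.0938 or more, so their order was not resolved. The relative spread in WT was 40.0% to 56.2% of the mean for the smooth muscle members and 13.8% to 22.2% for the pericyte members.

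None of 14 other pericyte genes was called by edgeR or DESeq2, limma-voom called 1 (*Tbx18*), and 1 had an unadjusted p under 0.05 in edgeR (1.07% of all genes were called lower, and 2.2% had such a p and were lower). Their median log2 fold change was -0.11. In the comparison by sex edgeR called *Anpep* lower in females (-0.65) and *Ndufa4l2* for the interaction of genotype and sex. With single mice left out it called *Anpep* and *Tbx18* without female *Nell-1+/6R* 3 or female WT 3, and *Tbx18* without male *Nell-1+/6R* 3. The most abundant of them were *Cspg4*, the NG2 proteoglycan, with a log2 fold change of -0.03, *Notch3*, the mural Notch receptor, with -0.02, and *Mcam*, an adhesion molecule, with -0.21. The gene with the small p, singled out after its value was seen, was *Anpep*, an aminopeptidase of pericytes, at 6.19 ± 2.03 and 4.26 ± 0.829 CPM in WT and *Nell-1+/6R* mice (SD, n = 6; p = 0.0154, edgeR; exact permutation p = 0.0455).

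Of 17 other smooth muscle genes tested, 2 were called, both lower (1.07% over all genes tested), and 7 had an unadjusted p under 0.05, all lower (2.2% over all genes). Their median log2 fold change was -0.17, with 13 negative and 4 positive. DESeq2 called the same 2, and limma-voom called *Pln* alone. *Pln*, the phospholamban that controls calcium uptake, was at 2.74 ± 1.12 and 1.48 ± 0.578 CPM in WT and *Nell-1+/6R* mice (SD, n = 6; log2 fold change -0.89, p = 0.0127, edgeR; exact permutation p = 0.0281). *Lmod1*, a leiomodin that seeds actin filaments, was at 2.58 ± 1.09 and 1.64 ± 0.295 CPM (log2 fold change -0.65, p = 0.0294, edgeR; exact permutation p = 0.0801). *Lmod1* missed the thresholds without female WT 1, male WT 2, female *Nell-1+/6R* 2 or male *Nell-1+/6R* 2, each left out in turn, with a log2 fold change of -0.46 without female WT 1. Both calls were lost in females alone and with the leptomeningeal sum, that sum without *Igf2* or the endothelial sum as covariate, where *Pln* was at -0.74, -0.64, -0.14 and -0.62 and *Lmod1* at -0.68, -0.36, 0.084 and -0.38. Without the 4 mice with high *Ttr*, *Pln* was called at -0.81 and *Lmod1* was not (-0.51), and *Casq2*, a calcium-binding calsequestrin, was called higher (0.64). The other 5 genes, listed after their values were seen, had smaller differences: *Tpm2* (-0.49), *Myl9* (-0.46), *Synpo2* (-0.45), *Smtn* (-0.34) and *Cald1* (-0.17). In males *Pln*, *Tpm2* (-0.66), *Myl9* (-0.66) and *Synpo2* (-0.61) were called lower, beside 1.6% of all genes, and *Lmod1* was not (-0.61). The most abundant, *Tpm1*, which neurons also express, had a log2 fold change of -0.07 at 163 CPM in WT.

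**Figure D2:**
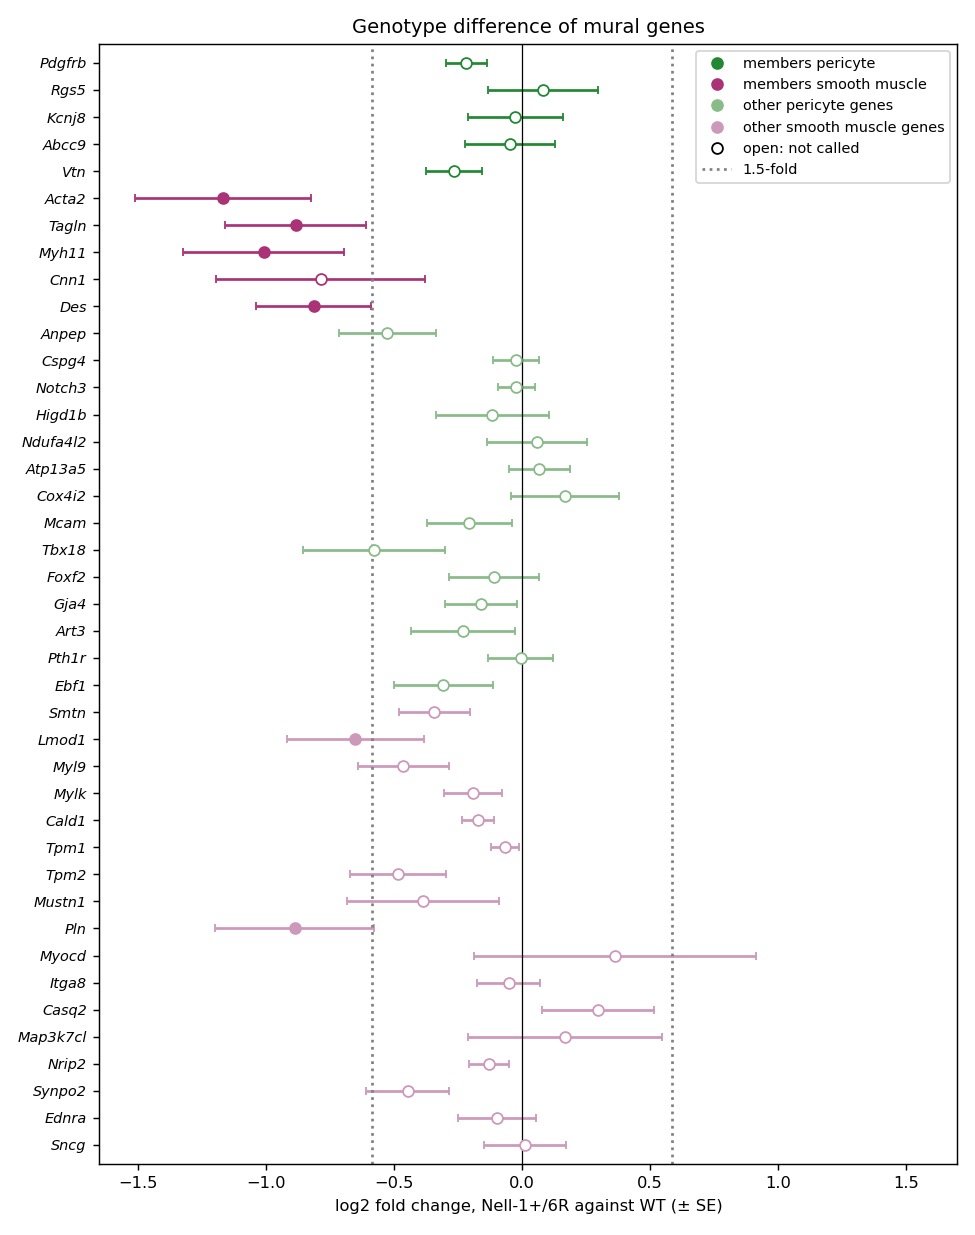
Log2 fold change of *Nell-1+/6R* against WT mice (x axis, ± standard error, edgeR, n = 6 per genotype) for the members and the other pericyte and smooth muscle genes tested. Filled points were called and open points were not, and dotted lines mark a fold change of 1.5. The called genes are *Acta2*, *Tagln*, *Myh11*, *Des*, *Lmod1* and *Pln*, all to the left of zero.

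The regulators and signals of these cells were examined as well. *Srf* averaged 116 and 113 CPM in the WT and *Nell-1+/6R* mice, and its cofactor genes *Mrtfa* and *Mrtfb* had log2 fold changes of -0.03 and -0.06. *Myocd*, the cofactor restricted to muscle, had 0 to 6 counts in a mouse, so no difference was detectable at this depth. None of these 4 was called or had an unadjusted p under 0.05 in edgeR, limma-voom or DESeq2. Of 11 genes for signals between endothelium and mural cells, 1 was called and 4 had an unadjusted p under 0.05, all lower. Over all genes 1.07% were called lower and 2.2% had such a p and were lower. One of the 4, *Tek*, is also among the endothelial markers below and is counted in both lists. The called gene was *Edn1*, the endothelial vasoconstrictor endothelin-1, at 2.59 ± 0.918 and 1.57 ± 0.274 CPM in WT and *Nell-1+/6R* mice (SD, n = 6; log2 fold change -0.73, p = 0.00618, edgeR; exact permutation p = 0.00433). Without female WT 1 it was under the fold threshold at -0.49. It was also not called in males alone (-0.43), with the leptomeningeal sum (-0.50), that sum without *Igf2* (-0.26) or the endothelial sum (-0.49) as covariate, or without the 4 mice with high *Ttr* (-0.51). *Pdgfb*, the ligand of the *Pdgfrb* receptor, was at 32.7 ± 3.69 and 35.1 ± 2.09 CPM (exact permutation p = 0.203).

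Relatives of the members outside smooth muscle showed no call among the 14 tested, by edgeR, limma-voom or DESeq2, and 2 of them had an unadjusted p under 0.05 in edgeR, both lower (2.2% of all genes). The cytoplasmic actins *Actb* and *Actg1* had log2 fold changes of 0.01 and -0.02, and the non-muscle myosins *Myh9* and *Myh10* had -0.02 and -0.0009. *Cnn2* (-0.43) and *Vim*, the intermediate filament gene of fibroblasts, endothelium and glia (-0.37), were those with the small p, and both were called lower in males (-0.71 and -0.61), where 1.6% of all genes were. *Pdgfra*, the sister receptor of fibroblasts and oligodendrocyte precursors, had -0.11. *Actg2* and *Actc1* were too low to be tested.

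The smooth muscle members varied together from mouse to mouse within a group. After removal of the 4 group means, the 10 pairs among them had Pearson r from 0.806 to 0.989 over 12 mice, with a median of 0.948. All 10 pairs had an adjusted permutation p under 0.05 (100000 permutations, Benjamini-Hochberg over 75 pairs computed). The closest pair was *Acta2* and *Tagln* (r = 0.989, rho = 0.986, permutation p = 1e-05, the smallest these permutations can give, adjusted p = 0.000187). Without the 2 mice farthest from the median of *Acta2*, r was 0.976, and over all 10 pairs it stayed at 0.674 or more. The pericyte members did not share such a pattern, with r from -0.425 to 0.875 and a median of -0.06. Only *Rgs5* and *Abcc9* moved together (r = 0.875, rho = 0.881, permutation p = 0.00021, adjusted p = 0.00225), and r was 0.844 without the 2 farthest mice. *Kcnj8* and *Abcc9*, the 2 subunits of 1 channel, did not (r = -0.117, permutation p = 0.715, adjusted p = 0.777).

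*Vtn* had its highest correlations with the smooth muscle members. Its r was 0.855 with *Tagln* (rho = 0.804, permutation p = 0.00035, adjusted p = 0.00292), 0.85 with *Des*, 0.797 with *Acta2*, 0.778 with *Myh11* and 0.687 with *Cnn1*, with adjusted p of 0.0047, 0.0098, 0.013 and 0.0405 for the last 4. Without the 2 farthest mice these 5 values ranged from 0.575 to 0.798. No other pair of a pericyte and a smooth muscle member had an adjusted p under 0.05. With *Pdgfrb*, *Vtn* had r = 0.373 (rho = 0.343, permutation p = 0.233, adjusted p = 0.365).

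**Figure D3:**
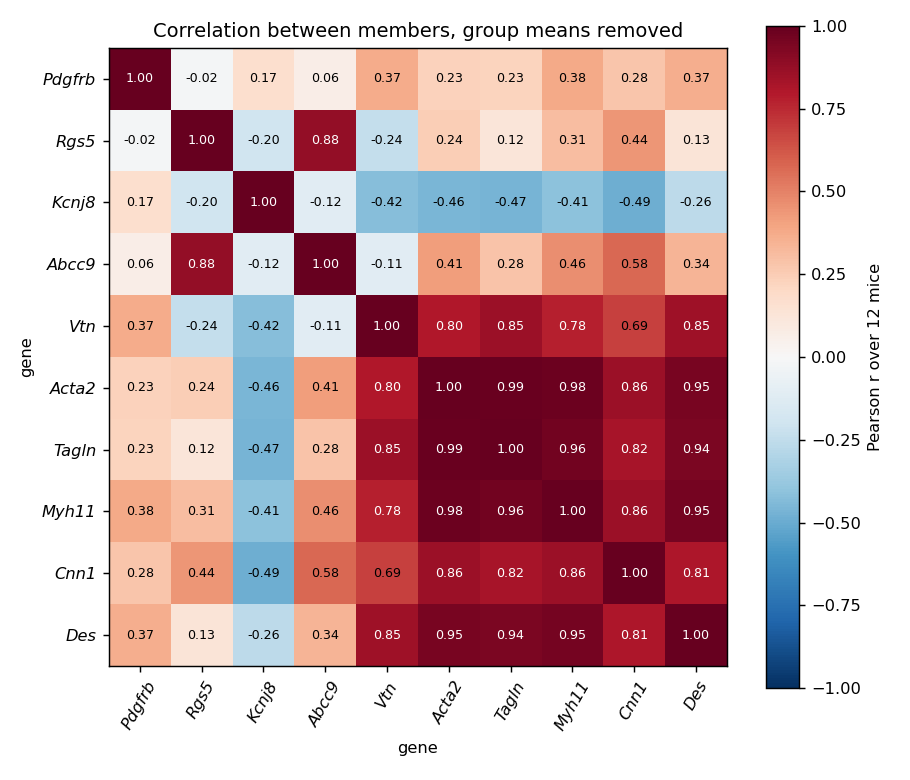
Pearson r between members over 12 mice, from log2 CPM with the mean of each sex and genotype group removed (colour scale from -1 to 1). The smooth muscle genes form a block at the lower right with r of 0.806 or more, *Vtn* joins it with 0.687 to 0.855, and *Rgs5* pairs with *Abcc9* at 0.875.

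Outside every list, the genes most like the mean of the 5 smooth muscle members, among 14280 ranked by the same r over 12 mice, were *Foxp2* (r = 0.94), *Bmp3* (0.917), *Foxc1* (0.912), *Col5a1* (0.908) and *Tfcp2l1* (0.907). The likeness concerns mice within a group, and none of the 5 was called between genotypes. *Foxc1*, a forkhead factor gene of meningeal and mural cells, had a log2 fold change of -0.50, under the fold threshold, whereas that of *Col5a1*, a fibrillar collagen gene, was -0.04 (adjusted p = 0.9995 for both, edgeR). The genes most like the pericyte members were *Dip2a* (r = 0.952), *Ano4* (0.946), *Sass6* (0.939), *Sp1* (0.935) and *Osbpl3* (0.923), none of them called. As the top of a long ranking, these r values are given as a description only.

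The log2 fold changes of the 5 smooth muscle members were negative in each sex, and 1 of them was called in females and 3 in males. In females *Des* was called (log2 fold change -0.91, adjusted p = 0.998, edgeR), where 0.97% of all genes were called lower. In males *Acta2* (-1.61), *Myh11* (-1.33) and *Tagln* (-1.12) were called (adjusted p = 0.9999 for each, edgeR), where 1.6% of all genes were called lower. The female log2 fold changes of these 3 genes were -0.75, -0.70 and -0.65, none past the p threshold. The difference between the sexes was not past the threshold for any of the 10 members, the smallest unadjusted p being that of *Acta2* (adjusted p = 0.987, edgeR), while 2.16% of all genes were called for it. Female *Nell-1+/6R* 3 had the highest *Acta2*, *Tagln*, *Myh11*, *Cnn1*, *Des* and *Vtn* of its genotype. None of the 10 members separated the genotypes without overlap, where 0.151% of all genes did.

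Markers of other cells moved with the smooth muscle members. Of 12 leptomeningeal fibroblast markers, 9 were called lower in *Nell-1+/6R* mice and 12 had a negative log2 fold change, with a median of -1.07, where 1.07% of all genes were called lower. DESeq2 called 8 of the 12. This list and those that follow were also chosen with earlier results of these data known. The 9 were *Col1a1*, *Col1a2*, *Col3a1*, *Lum*, *Fmod*, *Slc6a13*, *Slc22a6*, *Gjb2* and *Aldh1a2*. Among them, *Col1a1* was at 13.3 ± 5.68 and 6.95 ± 2.01 CPM and *Col1a2* at 14.7 ± 5.27 and 7.14 ± 4.20 CPM in WT and *Nell-1+/6R* mice (SD, n = 6). Several of these collagen genes are also expressed by fibroblasts along larger vessels. Summed without *Igf2*, which the choroid plexus also expresses, the list ranged from 84.5 to 227 CPM in WT (median 136) and from 46.4 to 140 CPM in *Nell-1+/6R* mice (median 70.1). With *Igf2*, it ranged from 138 to 450 CPM and from 83.0 to 392 CPM. The summed smooth muscle members ranged from 29.5 to 95.2 CPM in WT (median 42.8) and from 19.0 to 44.9 CPM in *Nell-1+/6R* mice (median 24.5). Female *Nell-1+/6R* 3 was the highest of its genotype at 44.9 CPM for smooth muscle and 140 CPM for the leptomeningeal sum without *Igf2*, whereas with *Igf2* female *Nell-1+/6R* 1 was the highest at 392 CPM.

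Border-associated macrophage markers, which mark cells of the meninges and perivascular spaces, were called lower in 5 of 6 cases (*Mrc1*, *Cd163*, *Lyve1*, *Pf4* and *Cbr2*), beside 1.07% of all genes. The number called was 4 with DESeq2, 2 without the 4 mice with high *Ttr*, 1 with the leptomeningeal sum as covariate and 0 with that sum without *Igf2*. Their sum ranged from 6.34 to 12.6 CPM in WT and from 3.45 to 9.41 CPM in *Nell-1+/6R* mice. The 4 mast cell markers were all called lower, at sums of 0 to 1.47 CPM in WT and 0 to 0.238 CPM in *Nell-1+/6R* mice, with 8 counts or fewer for each gene in any mouse, and *Tpsb2* had 0 counts in every *Nell-1+/6R* mouse. All 4 were also called with the leptomeningeal sum as covariate, 3 with that sum without *Igf2* and 3 without the 4 mice with high *Ttr*. In *Nell-1+/6R* mice none of the 4 exceeded 0.158 CPM (*Cpa3*), below the CPM of 0.2 needed for testing. They were tested only through WT mice, so their lower direction followed from the filter and these calls carry no support. None of 10 endothelial markers was called by edgeR, limma-voom or DESeq2. In edgeR 1 of them, *Tek*, had an unadjusted p under 0.05 and was lower, beside 2.2% of all genes. The endothelial sum ranged from 185 to 232 CPM in WT and from 179 to 226 CPM in *Nell-1+/6R* mice. None of the 6 choroid plexus markers was called by edgeR, limma-voom or DESeq2 or had an unadjusted p under 0.05, and their sum ranged from 49.9 to 4580 CPM in WT and from 40.4 to 5090 CPM in *Nell-1+/6R* mice. In males, where *Acta2*, *Myh11* and *Tagln* were called, 4 of these 6 were called lower as well, namely *Folr1* (log2 fold change -5.49), *Ttr* (-5.45), *Kcnj13* (-4.63) and *Kcne2* (-4.24), beside 1.6% of all genes, with male WT 3 at a sum of 4580 CPM. The interaction of genotype and sex was called for *Folr1*, *Ttr* and *Kcnj13* (2.16% of all genes), and 2 of the 6 (*Folr1* and *Ttr*) were called lower without the 4 mice with high *Ttr*. Leptomeningeal markers called lower in males were *Col1a1*, *Col1a2* (-1.51), *Col3a1* (-1.44), *Igf2*, *Slc22a6*, *Islr* and *Aldh1a2*, and macrophage markers were *Cd163*, *Lyve1* and *Cbr2*. In females *Col1a1*, *Col3a1*, *Dcn*, *Gjb2*, *Mrc1* and *Pf4* were called lower, where 0.97% of all genes were. The part of choroid plexus, leptomeningeal or macrophage markers in the smooth muscle calls of each sex was not tested. Of 3 red blood cell markers tested, 0 were called by edgeR, limma-voom or DESeq2. An unadjusted p under 0.05 was reached by 2 of them, both lower, beside 2.2% of all genes. *Hba-a2* was called lower in females, at -0.62, where 0.97% of all genes were. Red blood cell sums were 11.6 to 28.8 CPM in WT and 9.13 to 16.9 CPM in *Nell-1+/6R* mice. None of 6 principal neuron markers was called by edgeR, limma-voom or DESeq2, and 1 had an unadjusted p under 0.05 and was higher. In either direction, 584 of 17937 genes had such a p in edgeR.

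**Figure D4:**
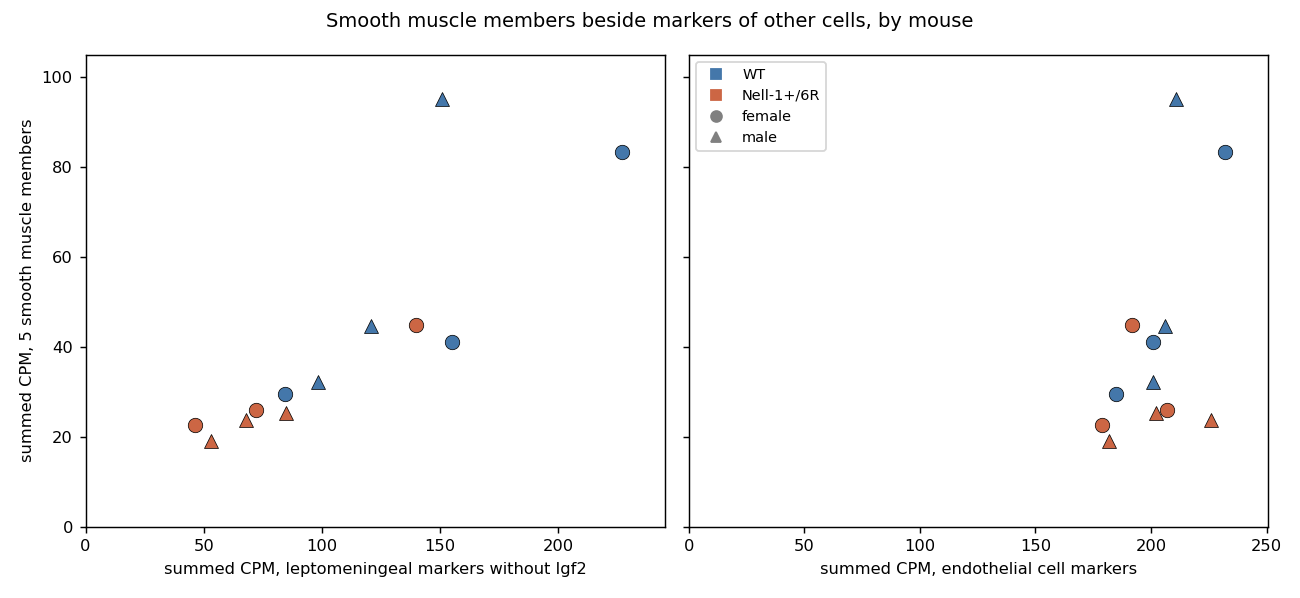
Summed CPM of the 5 smooth muscle members (y axis) against the summed CPM of the leptomeningeal markers without *Igf2* (left) and of the endothelial markers (right), 1 point per mouse, circles for females and triangles for males. The *Nell-1+/6R* mice lie at 46.4 to 140 CPM of leptomeningeal markers and 19.0 to 44.9 CPM of smooth muscle members, while the endothelial sums of the genotypes cover nearly the same range.

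With the summed leptomeningeal markers as a further covariate, 1 of the 10 members remained called (*Des*, log2 fold change -0.64, edgeR), where 0.541% of all genes were called lower, and those of *Acta2*, *Tagln* and *Myh11* were -0.72, -0.56 and -0.57. With that sum taken without *Igf2*, a fit added after the data had been seen, 0 members were called by edgeR, and 0 had an unadjusted p under 0.05, while 0.435% of all genes were called lower. In that fit the log2 fold changes were -0.22 for *Acta2*, -0.13 for *Tagln*, -0.09 for *Myh11*, -0.26 for *Des* and 0.14 for *Cnn1*. Pericyte members were affected as well. With sex and genotype alone 2 of them, *Pdgfrb* and *Vtn*, had an unadjusted p under 0.05 in edgeR, and with either leptomeningeal sum 0 had. With the endothelial sum as covariate the same 4 members were called, *Acta2* at -0.81, against 0.641% of all genes. A fit without the 4 mice with *Ttr* above 500 CPM, also added after the data had been seen, left 3 WT and 5 *Nell-1+/6R* mice. The same 4 members were called, *Acta2* at -1.23, against 0.585% of all genes, and 1 of the 12 leptomeningeal markers was called. In the mice left, the leptomeningeal sum without *Igf2* was 84.5 to 151 CPM in WT and 46.4 to 140 CPM in *Nell-1+/6R* mice. The smooth muscle sum was 95.2 CPM in male WT 2 but 29.5 and 44.6 CPM in the other WT mice. With so few WT mice, the smaller number of leptomeningeal calls does not show that their difference was gone. Since the leptomeningeal sum itself was lower in *Nell-1+/6R* mice, a genotype difference in smooth muscle and a difference in how much leptomeninges each sample held cannot be told apart in these libraries.

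**Figure D5:**
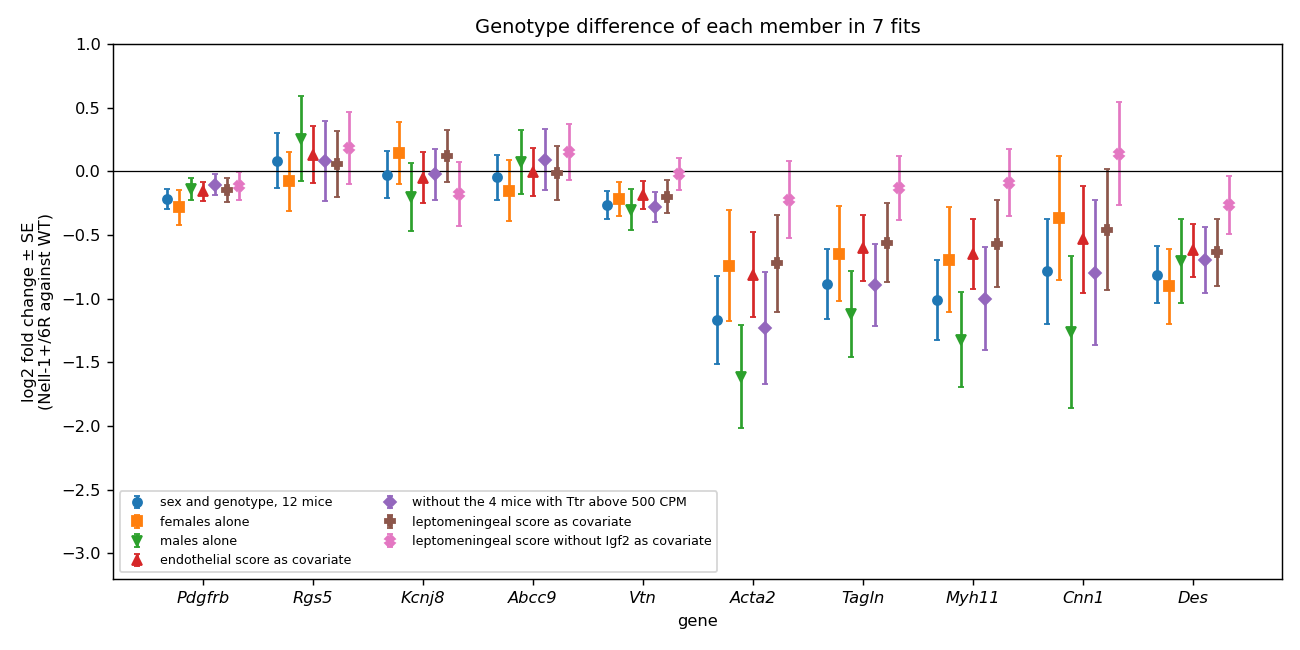
Log2 fold change (y axis, ± standard error, edgeR) of each member in 7 fits, namely all 12 mice with sex and genotype, each sex alone, 3 fits with a marker sum as covariate, and a fit without the 4 mice with high *Ttr*. *Acta2* goes from -1.17 with sex and genotype alone to -0.22 with the leptomeningeal sum without *Igf2*. The pericyte members, small in every fit, lie between -0.30 and 0.26.

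Correlations over mice were computed with 3 single markers picked after the data had been seen. Over the 10 members, r ranged from 0.00435 to 0.762 with *Col1a2*, of leptomeningeal and perivascular fibroblasts, from -0.549 to 0.82 with *Mrc1*, of border-associated macrophages, and from -0.188 to 0.744 with the endothelial *Cldn5*. An adjusted p under 0.05 was reached by 4, 3 and 1 of the 10 members. The highest value with *Col1a2* was that of *Myh11*, r = 0.762 (rho = 0.797, permutation p = 0.00428, adjusted p = 0.0169). The highest with *Mrc1* was that of *Cnn1*, r = 0.82 (rho = 0.755, permutation p = 0.00193, adjusted p = 0.0098). With *Cldn5* the r of the 5 smooth muscle members was 0.29 to 0.38, none with an adjusted p under 0.05, whereas that of *Pdgfrb* was 0.744 (rho = 0.79, permutation p = 0.00402, adjusted p = 0.0169). Without the 2 mice farthest from the median of the member, these r were 0.774, 0.793 and, for *Pdgfrb*, 0.882.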

How the data were processed

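Total RNA of whole hippocampus was sequenced as single 50-base reads on an Illumina HiSeq. The authors aligned the reads to mm10 with HISAT2 2.1.0 and deposited raw counts per Entrez gene from featureCounts (the submitters' processing notes and the study's methods name different versions), without normalization or pooling. The sources used here give no strand or multi-mapping setting. The titles of the WT samples contain "Het", but their genotype field reads WT.

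Members and lists were chosen with earlier results of these data known. Genes reaching a CPM of 0.2 in 2 or more mice were tested with edgeR 4.0.16 (R 4.3.3, TMM factors, quasi-likelihood test, sex and genotype) and adjusted by the Benjamini-Hochberg method over 17937 genes. The study's methods used limma-voom with the same filter and thresholds. The fits were tested on simulated data. CPM values are TMM-scaled, and 95% intervals use 9 residual degrees of freedom. Exact permutation tests used log2 CPM with a prior count of 2. Permutation of residuals treats them as exchangeable. Positions and start windows are from RefSeq GRCm38.p6 and exon lengths from GENCODE M21.

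Alternatives were other scalings (DESeq2's size factors, upper quartile), limma-voom (limma 3.58.1), DESeq2 1.42.0, other filters, a replicate block, single mice or a sex left out, marker sums as covariates and a prior count of 0.5. By rule the genes open to naming were the members, *Nell1*, list genes that were called, at 0 or among the 3 most abundant of a list, all channel, SRF and relative genes, and the 5 genes most like each set of members. Other genes were named after their values were seen. Python 3.11.15 (pandas 2.3.3, numpy 2.4.6, scipy 1.17.1, matplotlib 3.10.9) made the tables and figures.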

Additional observations from a re-analysis of the deposited data

Results flagged for a closer look

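A single mouse stood apart from the other 5 of its genotype in 2 of the 22 sets of 6 values examined (the 10 members and *Nell1* in each genotype), by Dixon's test on CPM at the 95% level, where chance gives about 1 in 20. Both concern female *Nell-1+/6R* 3. Its *Acta2* was 17.1 CPM, with the next mouse at 8.74 CPM (ratio 0.74), and its *Myh11* was 15.6 CPM, with the next mouse at 9.90 CPM (ratio 0.683). Without this mouse the log2 fold changes were -1.42 for *Acta2* and -1.21 for *Myh11*. Dixon's test looks for 1 value apart, so it can miss 2 high values in the same set. In WT, male WT 2 and female WT 1 had *Acta2* at 36.5 and 32.0 CPM, with the next mouse at 16.0 CPM. Their *Myh11* was 36.4 and 28.9 CPM, with the next mouse at 16.3 CPM. Over the fits with a single mouse left out, the log2 fold change nearest zero was -0.84 for *Acta2* and -0.71 for *Myh11*. None of the 10 members had an unadjusted p under 0.05 for the difference in genotype effect between the sexes (edgeR), but the errors were wide, that of *Acta2* being 0.87 on the log2 scale (female minus male, standard error 0.666), which does not show equal effects.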

How the results depend on the processing

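The 4 member calls (*Acta2*, *Tagln*, *Myh11* and *Des*) were the same under other scalings, filters, limma-voom, DESeq2, genotype alone and the endothelial covariate. The number of members called was 1 in females alone, 1 with the leptomeningeal covariate and 0 with that covariate without *Igf2*, and 4 to 5 with single mice left out. Other mural genes called numbered 8 without a fold threshold, 4 in males alone, 0 in females alone and with each of the 3 marker covariates, 2 without the 4 mice with high *Ttr* (*Pln* lower, *Casq2* higher), and 1 to 4 with single mice left out. Over all genes, 2.2% were lower without a fold threshold. Called lower were 322 of 17288 genes in males alone and 139 of 17447 in females alone. The shares called lower were 0.541% with the leptomeningeal covariate, 0.435% with that covariate without *Igf2* and 0.641% with the endothelial one. Without the 4 mice with high *Ttr* it was 0.585%. All genes called numbered 170 with DESeq2, 94 with filterByExpr, 82 when 6 or more mice had to reach a CPM of 1, 403 in males alone, and 202 to 400 with single mice left out, 400 being without female *Nell-1+/6R* 1. Signs turned for members with small effects and, in 1 fit, for *Cnn1*, which was at -0.79 with sex and genotype alone. *Rgs5* was -0.077 in females, *Kcnj8* 0.14 in females and 0.12 with the leptomeningeal covariate, and *Abcc9* 0.074 in males, 0.090 without the 4 mice with high *Ttr* and 0.15 with the covariate without *Igf2*, where *Cnn1* was 0.14. With single mice left out the log2 fold changes ranged from -0.13 to 0.17 for *Rgs5*, from -0.16 to 0.10 for *Kcnj8* and from -0.16 to 0.025 for *Abcc9*. The cause was not tested. With filterByExpr or the strict filter *Cnn1* was not tested. The members' lowest adjusted p in any fit was 0.457.

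The labels give no litters, so whether replicate numbers pair the mice is not known. After removal of group means, same-numbered mice of the same sex had r from -0.569 to 0.553. Mice of different number had r from -0.668 to 0.577. With 3 mice in a group such r can neither show nor exclude pairing. With the replicate block 4 members, 1 other mural gene and 212 genes in all were called.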
